A study of Rattus norvegicus with 48 samples.

Results

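The miRNA names examined here are those numbered from miR-3540 to miR-3599 and from miR-6314 to miR-6334, except miR-3553, names of high number in the rat section of miRBase, the registry of miRNAs. They were chosen by number from the deposited small RNA table, mature and precursor names alike, with earlier results of these data known. Rows that shared a name were summed. This gave 119 of the 1063 names, 53 of the 612 mature and 66 of the 451 precursor names, from 123 rows. The libraries came from Long Evans rats on postnatal day 42, whose dams had received intraperitoneal injections of ethanol or of saline on gestational day 12. After weaning on day 21 the rats were socially enriched, that is housed with rats of the same age and sex from an untreated dam, or non-enriched, that is kept with littermates. Amygdala and ventral striatum RNA was sequenced, with 3 libraries for each sex, prenatal treatment, housing and region, 48 in all, and each library was a pool of RNA from 3 rats, so that single animals cannot be seen. Both regions were taken from the same rats. The study asked how prenatal ethanol and social enrichment alter brain miRNAs.

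A miRNA gene is transcribed into an RNA that folds into a hairpin, the precursor. Dicer cuts the hairpin into a short duplex, and 1 arm, the mature miRNA, guides an Argonaute protein to messenger RNAs, mostly through the seed near its 5′ end. A strand of DNA and its complement can each encode a hairpin at the same place, and a hairpin and its antisense partner then carry sequences that are reverse complements of each other. miRBase numbers names in the order of their entry, so a high number marks a late entry.

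That arrangement was common among the members. Of the 53 mature members, 48 had a sequence in the RefSeq table of the rat build GRCr8, and 21 of those held a stretch of at least 15 bases that was the reverse complement of an older mature miRNA. In 20 of these 21 the older miRNA lay at the same place on the opposite strand. The other is miR-6325, with a match of 15 bases to miR-1843b-5p at another place. In the other 27 the longest such stretch was 11 bases. Of the 54 precursor members with a hairpin in the table, 22 overlapped an older hairpin on the opposite strand, and 2 more (mir-3557 and mir-3570) held older mature miRNAs on that strand.

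The sequences of 5 of the pairs whose values were the same in every library are shown because the 2 members of a pair mirror each other over their whole length. They are written 5′ to 3′ from RefSeq (GRCr8), and capitals mark the bases complementary to the partner, here all of them. They lie at chr13:52037121-52037142 (minus strand for miR-3570), chr1:205755946-205755967 (plus strand for miR-3574), chr6:134563606-134563627, chr6:134579472-134579493 and chr6:134569992-134570012 (minus strand for miR-3576, miR-3578 and miR-3592), and each older miRNA has the same start and end on the other strand.
miR-3570: GGUACAAUCAACGGUCGAUGGU
miR-181a-1-3p: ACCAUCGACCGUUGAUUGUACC
miR-3574: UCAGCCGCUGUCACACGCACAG
miR-210-3p: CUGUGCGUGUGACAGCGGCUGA
miR-3576: ACACACCAAGGAUAAUUUCUCC
miR-539-5p: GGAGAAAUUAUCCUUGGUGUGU
miR-3578: GCGAAUAUAACACGGUCGAUCU
miR-369-5p: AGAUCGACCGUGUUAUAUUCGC
miR-3592: AAGUGUUGUCCGUGAAUGAUU
miR-382-3p: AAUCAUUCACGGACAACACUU

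A further 5 pairs are complementary in the same way but did not have equal values. They are shown because 4 of these members were among the most abundant or differed by region, and because the partner of miR-3589 did not reach 1 read in any library. Capitals mark the complementary stretch, and lower-case bases lie outside it. The members lie at chr6:134330451-134330473 (miR-3543, minus strand), chr6:134321165-134321187 (miR-3544, minus strand), chr11:29732588-29732609 (miR-3588, minus strand), chr8:50805219-50805240 (miR-3596a, minus strand) and chrX:143778782-143778803 (miR-3589, plus strand).
miR-3543: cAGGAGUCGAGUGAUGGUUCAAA
miR-434-3p: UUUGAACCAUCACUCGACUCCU
miR-3544: AACUCCUGCAUGACGCCGuuccc
miR-337-5p: CGGCGUCAUGCAGGAGUUgau
miR-3588: UCACAAGUUAGGGUCUCAGGGA
miR-125b-5p: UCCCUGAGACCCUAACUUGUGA
miR-3596a: AACUAUACAACCUACUACCUCA
let-7a-5p: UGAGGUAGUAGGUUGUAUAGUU
miR-3589: gaGGAAACCAGCAAGUGUUGAC
miR-505-3p: GUCAACACUUGCUGGUUUCC

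The members without an older miRNA opposite them included miR-6321, miR-6331, miR-3552 and miR-6329, shown with the seed (bases 2 to 8) in capitals. They lie at chr14:19743454-19743476 (minus strand) within the span of Rufy3, at chr6:134564374-134564397 (plus strand), at chrX:115488778-115488798 (plus strand) within the span of the serotonin receptor gene Htr2c, and at chr8:61334292-61334314 (minus strand) within the span of Rdx, which encodes the membrane-cytoskeleton linker radixin. The gene table gives no strand for these spans. Of the 48 mature members with a sequence, 0 shared their seed with another listed mature miRNA.
miR-6321: uACUGCAGugaguucuaugaagc
miR-6331: cUUUGGUGgcuuaguucuuugugc
miR-3552: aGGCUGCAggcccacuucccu
miR-6329: aAUGUGACucagcuaucugaaca

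The files hold a normalized value described as RPM (reads per 1000000), in which the mature and the precursor names each add up to 1000000 in a library. The worth of 1 read was read from the most repeated low value of each library. Amygdala libraries held 363108 to 1287664 mature reads (median 855196) and ventral striatum libraries 739645 to 1370426 (median 1031146). The worth of 3 reads, taken here as the floor of detection, was 2.33 to 8.26 RPM for mature names in amygdala and 2.19 to 4.06 RPM in ventral striatum libraries. The floor covers counting error only. Marker names checked the tissue. The 5 brain and neuron names and the 3 striatum and forebrain names had at least 1 read in every library, and the summed brain names had medians of 42844 RPM in amygdala and 39988 RPM in ventral striatum. The forebrain names summed to 127830 to 220770 RPM in ventral striatum and to 115050 to 212940 RPM in amygdala, the 2 oligodendrocyte names to 3989 to 13455 RPM in amygdala and 5174 to 14115 RPM in ventral striatum. Sums of the blood names stayed under 57.0 RPM, those of the muscle names under 19.6 RPM and that of the liver name under 3.96 RPM in all libraries. The 7 choroid plexus names found, of 8 listed, summed to 4376 to 7592 RPM in ventral striatum. In amygdala 11 libraries had 3425 to 5426 RPM and 13 had 12476 to 131299 RPM, and the 3 names of ciliated cells had medians of 3178 RPM in amygdala and 615 RPM in ventral striatum.

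In the table, 6 mature members repeated the value of an older miRNA in all 48 libraries. Besides the 5 pairs shown, this was miR-3557-3p with miR-378a-5p, which come from opposite strands of 1 place in the span of Ppargc1b, the gene of a transcriptional coactivator of mitochondrial genes. miR-3570 (as miR-181a-1-3p) had 93.3 RPM in the lowest, 139 in the median and 214 in the highest library. miR-3578 (as miR-369-5p) had 37.0, 62.1 and 100.1 RPM, and miR-3576 (as miR-539-5p) 12.2, 28.4 and 46.9 RPM. All 3 exceeded 3 reads in every library.

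miR-3574, the mirror of the hypoxia-responsive miR-210-3p, had 6.45 RPM in the lowest, 11.2 in the median and 18.1 in the highest library. miR-3592 had 4.03, 9.58 and 17.9 RPM, and miR-3557-3p 1.38, 7.75 and 16.3 RPM. At the lowest, miR-3574 had 3.5 reads and miR-3557-3p 0.5 reads. Expressed in reads, 127 of the 288 values of the 6 names were whole numbers and 145 were odd multiples of 0.5 reads, within 0.02 reads, the values that a read divided equally between 2 names would give. The remaining 16 values were neither. A further pair of members, miR-3593-5p and miR-6317, had the value of an older name (miR-101b-5p and miR-223-5p) in every library too, but with 1 read in 1 library and 0 in the others.

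Other members did not equal an older miRNA but kept a fixed ratio to it. Among mature names this was miR-3543, opposite miR-434-3p, a miRNA of the imprinted Dlk1-Dio3 region on chromosome 6. Its value was 0.115 of that of miR-434-3p, with a range of 0.113 to 0.119 over the 48 libraries. Among precursor names, 20 members kept a fixed ratio, with an SD of the log2 ratio of at most 0.00513. The threshold for a fixed ratio, an SD under 0.05, was set after the values were seen, and the smallest SD among the other precursor members was 0.0964. In the same table, 22 of the 385 other precursor names (5.71%) had an equal value or a fixed ratio to another such name, against 30.3% of the precursor members, and 8 of the 559 other mature names (1.43%) against 13.2% of the mature members.

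In all 17 fixed-ratio precursors with a hairpin in the sequence table, the fixed-ratio partner was the older miRNA opposite the member, for mir-3570 by its mature arms. The members covered let-7 (mir-3596b, mir-3596c and mir-3596d with let-7d, let-7e and let-7f-1), the mir-29 family (mir-3556a, mir-3556b-1 and mir-3556b-2), the epithelial mir-200 family (mir-3548 with mir-200a, mir-3575 with mir-200c), heart and muscle miRNAs (mir-3546 with mir-208a, mir-3571 with mir-1) and the liver miRNA mir-122 (mir-3591). From the chromosome 6 region came mir-3544 with mir-337, mir-3576 with mir-539, mir-3579 with mir-380 and mir-3595 with mir-376a. The others were mir-3549 with mir-193a, mir-3560 with mir-501, mir-3570 with mir-181a-1, mir-3574 with mir-210 and mir-3586 with mir-151.

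The ratio itself differed enormously between pairs. mir-3544 was 118 times as high as mir-337 in each library, and mir-3596b 4.59 times as high as let-7d. In these 2 pairs of precursor names the member held most of the signal. The mature names went the other way for mir-3544, with means of 120 RPM for miR-337-3p, 59.7 RPM for miR-337-5p and 3.08 RPM for miR-3544. The members include no mature miR-3596b, and let-7d-5p averaged 2113 RPM and let-7d-3p 377 RPM. mir-3574 had 0.0321 of the value of mir-210, mir-3596d 0.0147 of that of let-7f-1 and mir-3570 0.000455 of that of mir-181a-1. The median log2 ratio reached −36.11 for mir-3575 against mir-200c. In 16 of the 20 the member had less than 0.001 of the value of its partner, and 15 of the 20 did not reach 1 read in any library. A value above 0 in this table is therefore not the same as a read.

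**Figure D1:**
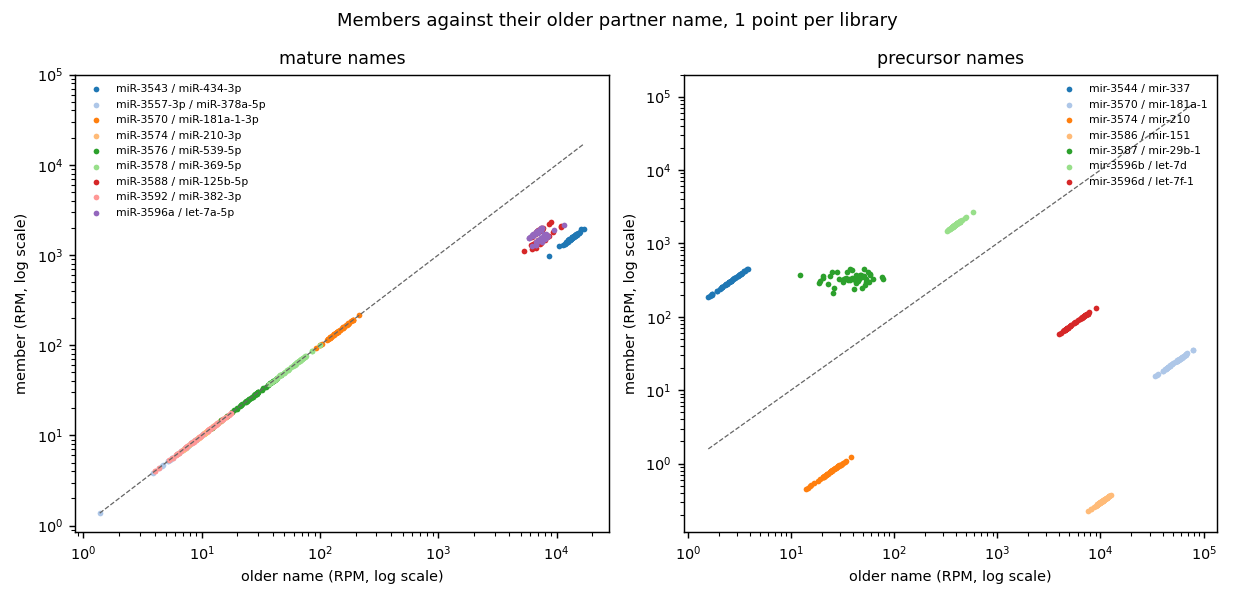
Value of a member (RPM, log axis) against that of the older miRNA name (RPM, log axis), 1 point per library, with the line of equal values dashed. The 6 mature names lie on that line, fixed-ratio names lie on lines parallel to it, and miR-3588, miR-3596a and mir-3587 form clouds against their partners.

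The other complementary pairs fell into different patterns. In some, the member took nearly all of the signal. miR-3557-5p had 952 RPM in the lowest, 1322 in the median and 1867 in the highest library, while miR-378a-3p, the older name opposite it and a miRNA tied to energy metabolism, had 0 libraries with 1 read. The precursors had the reverse pattern, with mir-378a at a mean of 1205 RPM and mir-3557 at 0.178 RPM. miR-3589 averaged 4.76 RPM where miR-505-3p reached 1 read in 0 libraries, although the precursor mir-505 averaged 38.96 RPM. mir-3590 averaged 647 RPM and mir-130a 0.256 RPM, and here the mature names went the other way, with 747 RPM for miR-130a-3p and 4.75 RPM for miR-3590-5p.

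In other pairs both names had signal, within a narrow band. miR-3588 held 18.5% of the sum of itself and miR-125b-5p, an abundant brain miRNA, with a range of 15.4% to 21.3% over the libraries. miR-3596a held 18.7% of its sum with let-7a-5p, with a range of 15.7% to 21.3%. mir-3587 held 89.2% of its sum with mir-29b-1 (80.7% to 96.8%), with which it shares 36 of its 63 bases of hairpin. For members near the floor the share varied widely. miR-3544, with a mean of 3.29 reads, held an imprecise 4.91% of its sum with miR-337-5p (0% to 27.4%). miR-3560, with a mean of 2.24 reads, held 55.9% of its sum with miR-501-3p (0% to 89.8%). Its values in amygdala ran from 1.58e-14 to 11.3 RPM, and the reason for this spread was not tested.

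In further pairs nearly all of the signal was under the older name. miR-3556b, miR-3579 and miR-3596c reached 1 read in 0 libraries, where miR-29c-3p averaged 469 RPM, miR-380-5p 11.5 RPM and let-7e-5p 3240 RPM. Among precursors without a fixed ratio, shares are given first from sums over all 48 libraries. mir-3543-1 held 0.0965% of its sum with mir-434-1 and mir-3578 0.0651% of that with mir-369. mir-3592 held 0.289% of that with mir-382 and mir-3596a 0.0418% of that with let-7a-2. In the median library the shares were 0.0846%, 4.40e-07%, 1.24e-06% and 0.0220%. In the highest library they were 0.262%, 1.74%, 5.43% and 0.527%. At least 1 read of mir-3578, mir-3592 and mir-3596a was present in 4, 17 and 6 of 48 libraries.

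As a group the members were sparse. Among mature names, 13 of 53 members (24.5%) and 296 of 559 other names (53.0%) had at least 1 read in every library. Among precursor names these were 15 of 66 members (22.7%) and 280 of 385 other names (72.7%). The median of the mean levels was 1.48 RPM for mature members and 13.9 RPM for other mature names, and 0.445 RPM against 109 RPM for precursors. All mature members together made up 1.01% to 1.48% of the mature signal of a library, and the precursor members 0.520% to 0.864% of the precursor signal. Values above 0 occurred in a median of 35 libraries for mature members, at least 1 read in 31 and more than 3 reads in 3. For precursor members the medians were 48, 11.5 and 0 libraries. In all, 23 mature and 37 precursor members never exceeded 3 reads.

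At the low end, 16 mature and 8 precursor members were above 0 in at most 6 libraries. Among these the highest value in any library was 2.70 RPM (3 reads) for mature and 2.34 RPM (2 reads) for precursor names. Another 10 precursor members were above 0 in all 48 libraries without reaching 1 read in any. The mature names miR-3556b, opposite miR-29c-3p, and miR-3596c, opposite let-7e-5p, likewise were above 0 in all 48 libraries and reached 1 read in none.

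**Figure D2:**
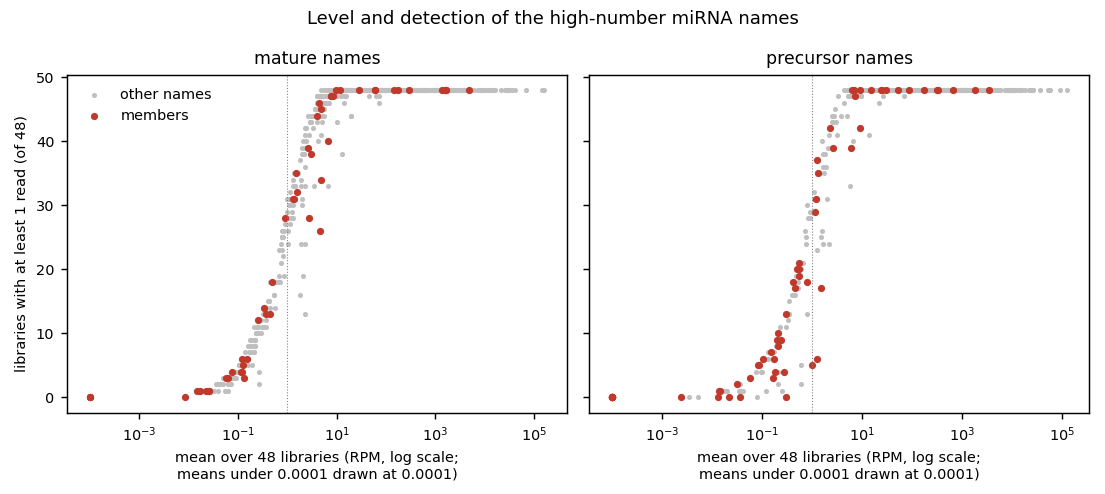
Libraries with at least 1 read (of 48) against the mean level (RPM, log axis) for mature names (left) and precursor names (right), members in red and other names in grey. The means of 24 mature and 40 precursor members lie under 1 RPM (dotted line), and 5 and 2 lie over 1000 RPM with reads in all 48 libraries.

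A few members were abundant. miR-3586-3p, which carries the number of the hairpin in a fixed ratio with mir-151, had 3641 RPM in the lowest, 4797 in the median and 6769 in the highest library, the 34th highest mean of all mature names. The arms of mir-151 averaged 3618 ± 507 RPM (miR-151-3p) and 568 ± 262 RPM (miR-151-5p; SD, n = 48). miR-3596a had 1268, 1674 and 2162 RPM, miR-3588 had 1098, 1707 and 2347 RPM and miR-3543 had 977, 1565 and 1964 RPM. With miR-3557-5p these were the 5 members over 1000 RPM, and 4 of the 5 are reverse complements of an older mature miRNA. miR-3586-3p has no sequence in the table.

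The next 5 mature members by mean were miR-6331, miR-6321, miR-3570, miR-3578 and miR-3552. miR-6331 had 193 RPM in the lowest, 287 in the median and 426 in the highest library. miR-6321 had 131, 177 and 225 RPM. miR-3552 varied most of these, with 16.3, 56.2 and 166 RPM, and its hairpin lies 1775 bases from that of mir-764, another miRNA of the Htr2c locus.

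Among precursors mir-6331 was highest, with 1975 RPM in the lowest, 3297 in the median and 4912 in the highest library. It lies on the plus strand of chromosome 6, 652 bases after the hairpin of mir-3576, among 52 hairpins of the Dlk1-Dio3 region in the table. Of the 8 members with a hairpin in that region, the other 7 are on the minus strand. mir-3596b followed with 1482, 1797 and 2653 RPM, mir-3590 with 425, 629 and 1032 RPM, mir-3587 with 208, 331 and 453 RPM, mir-3544 with 187, 303 and 450 RPM and mir-6321 with 131, 175 and 220 RPM. Of these 6, mir-6331 and mir-6321 have no older hairpin opposite.

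The precursor and mature values of a number matched for some members and were far apart for others. The 2 kinds are scaled apart, so only large gaps are described. mir-6321 was 0.925 to 1.08 times and mir-3552 0.845 to 0.992 times its mature name over the 48 libraries. mir-6331 was higher than miR-6331 in 48 of 48 libraries, by 7.89 to 17.6 times. Members opposite an older miRNA, or with a precursor in a fixed ratio to one as for mir-3586, split both ways. miR-3586-3p averaged 4896 RPM and mir-3586 0.305 RPM, miR-3588 1669 and mir-3588 0.990 RPM, and miR-3596a 1681 and mir-3596a 1.26 RPM. mir-3544 and mir-3590 had the reverse, with 308 RPM against 3.08 RPM for miR-3544 and 647 RPM against 4.75 RPM for miR-3590-5p.

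**Figure D3:**
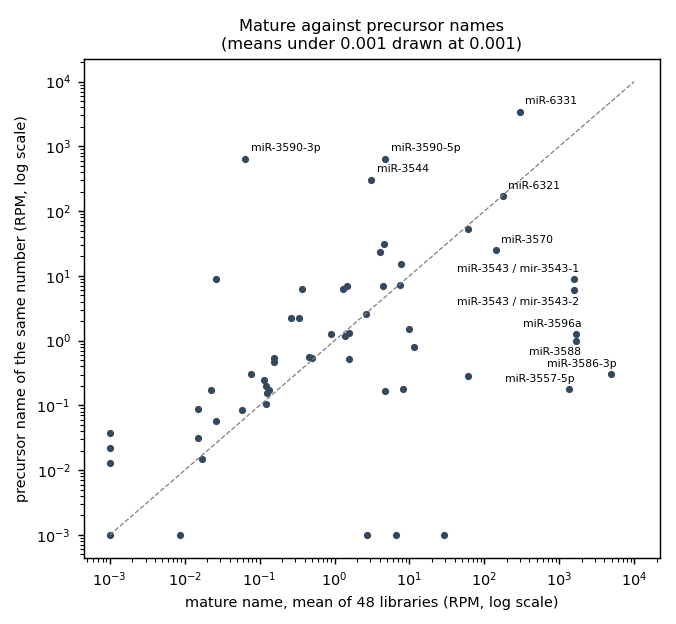
Mean of the precursor name (RPM, log axis) against that of each mature name of the same number (RPM, log axis), with the line of equal values dashed and means under 0.001 drawn at 0.001. miR-6321 lies on the line, miR-6331, miR-3544 and both arms of miR-3590 lie above it, and miR-3586-3p, miR-3588, miR-3596a, miR-3557-5p and miR-3543 lie far below it.

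The regions were compared by limma on log2(RPM + 1) values, for names above 0 in 6 or more libraries of either region, with Benjamini-Hochberg adjustment over all names. Of the 93 members tested, 17 had an adjusted p under 0.05 (18.3%), where 29.5% of all 942 names did. The filter let in names that never reached 1 read. Among names above 0 in all 48 libraries, 10 precursor and 2 mature members were of this kind, against 3 and 2 other names. Values that low lie near 0 on the log2(RPM + 1) scale, though mir-3586, which never reached 1 read, was past the threshold. The part of such names in the 2 shares was not tested, so the shares do not compare like with like. Of these 17, 3 were higher in amygdala and 14 in ventral striatum, against 8.49% and 21% of all names. With values rescaled by median ratios the split was 4 and 8. Consecutive library numbers formed 24 pairs, each with both regions and the same sex and treatment. The labels do not say that a pair holds the same rats. With these pairs as a random block, 17 members were past the threshold, 3 and 14 by direction, and the calls of the 9 members named below held. The permutation tests treat the libraries as independent. The median log2 difference was −0.02 over the members and −0.08 over all names. Amygdala libraries had the higher choroid plexus sums given above, and the part of this tissue in the regional differences was not tested. In pooled tissue RNA, fewer cells of a type and less RNA per cell cannot be told apart. With the 13 amygdala libraries with the highest choroid plexus sums left out, a choice made after the values were seen, 9 members were past the threshold, 0 of them higher in amygdala. Values below are on the RPM scale, differences on the log2(RPM + 1) scale, with 24 libraries in each region.

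mir-3544, the hairpin opposite mir-337, was lower in amygdala. It had 187 RPM in the lowest, 256 in the median and 326 in the highest amygdala library, and 269, 367 and 450 RPM in ventral striatum. The ranges met only between 269 and 326 RPM. The means were 253 ± 40.5 and 363 ± 48.0 RPM (SD, n = 24 each), a log2 difference of −0.53 (standard error 0.07, limma adjusted p = 3.89e-07, permutation p = 2e-05, the smallest that 100000 resamples gave). Since mir-337 kept its ratio to mir-3544 in each library, it differed by the same factor. The older mature arms opposite mir-3544 differed in the same direction. miR-337-3p averaged 97.8 RPM in amygdala and 143 RPM in ventral striatum, and miR-337-5p 49.7 and 69.8 RPM. Older names are given here as means without a test. Mature miR-3544 was lower in amygdala too, at 1.30 ± 1.45 against 4.86 ± 3.93 RPM (log2 difference −1.25, standard error 0.30, limma adjusted p = 0.00159), with at least 1 read in 16 of 24 amygdala and 22 of 24 ventral striatum libraries. Its mean in amygdala was 1.17 reads, under the floor, and the size of the difference followed the pseudocount, at −2.21 with 0.1 and −0.36 with 10 in place of 1.

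mir-6329 and miR-6329, from the Rdx span, were both lower in amygdala. mir-6329 had 6.43 RPM in the lowest, 9.74 in the median and 19.3 in the highest amygdala library, and 8.62, 17.9 and 38.9 RPM in ventral striatum. The libraries of the regions overlapped, but the median of ventral striatum lay near the top of the amygdala range. The log2 difference was −0.74 (standard error 0.12, limma adjusted p = 1.99e-05, permutation p = 2e-05). For miR-6329 it was −0.79 (standard error 0.19, limma adjusted p = 0.00165), at 5.59 ± 2.70 against 10.04 ± 4.23 RPM (SD, n = 24 each). A mature name and its precursor may share reads, so the 2 are not independent.

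miR-6321 and mir-6321 differed less and varied little. miR-6321 had 131, 162 and 188 RPM in amygdala and 147, 189 and 225 RPM in ventral striatum (lowest, median and highest library). The regions overlapped between 147 and 188 RPM. The log2 difference was −0.22 (standard error 0.04, limma adjusted p = 0.000327, permutation p = 4e-05), and that of mir-6321 −0.20 (standard error 0.04, limma adjusted p = 0.000523). Without the 13 amygdala libraries, mir-6321 had a log2 difference of −0.13 (limma adjusted p = 0.102) and miR-6321 one of −0.16 (limma adjusted p = 0.0365).

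miR-3586-3p had 3641, 4513 and 5846 RPM in amygdala and 4321, 5163 and 6769 RPM in ventral striatum (lowest, median and highest library). Its log2 difference was −0.21 (standard error 0.04, limma adjusted p = 0.000308, permutation p = 2e-05). Of the arms of mir-151, miR-151-3p averaged 3359 RPM in amygdala and 3878 RPM in ventral striatum. miR-151-5p went the other way, at 611 and 524 RPM. The other members higher in ventral striatum by limma were miR-3557-3p, miR-3592, miR-6319, mir-3570, mir-3585, mir-3586 and mir-3596b. miR-3557-3p and miR-3592 carry the values of miR-378a-5p and miR-382-3p, with log2 differences of −0.43 and −0.37. mir-3570, mir-3586 and mir-3596b follow mir-181a-1, mir-151 and let-7d in a fixed ratio. mir-3586 did not reach 1 read in any library, at 0.285 against 0.324 RPM. miR-6319 and mir-3585 averaged under 3 reads in both regions.

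The 3 members higher in amygdala were mir-3590, miR-3588 and mir-3594. mir-3590, opposite mir-130a, had 489, 732 and 1032 RPM in amygdala and 425, 550 and 969 RPM in ventral striatum (lowest, median and highest library). The groups overlapped over most of their range. The log2 difference was 0.37 (standard error 0.09, limma adjusted p = 0.0019, permutation p = 0.0002). The older miR-130a-3p averaged 837 RPM in amygdala and 658 RPM in ventral striatum. mir-130a averaged 0.150 and 0.362 RPM, under 1 read in both regions. It reached 1 read in 1 library only, of ventral striatum, at 6.01 RPM. Its medians were 0.150 RPM in amygdala and 0.113 RPM in ventral striatum. miR-3588, the complement of miR-125b-5p, averaged 1805 ± 258 against 1533 ± 261 RPM (SD, n = 24 each), a log2 difference of 0.24 (standard error 0.07, limma adjusted p = 0.0123). miR-125b-5p itself averaged 7735 RPM in amygdala and 6985 RPM in ventral striatum. mir-3594, within the span of the centrosomal gene Cep131 by its mature arms, averaged 7.52 ± 2.88 against 4.95 ± 1.73 RPM, a log2 difference of 0.49 (standard error 0.15, limma adjusted p = 0.013). Without the 13 amygdala libraries the log2 differences of these 3 were 0.22, 0.23 and 0.41 (limma adjusted p = 0.267, 0.129 and 0.216). With all libraries they were 0.37, 0.24 and 0.49. The reason for the changes was not tested.

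**Figure D4:**
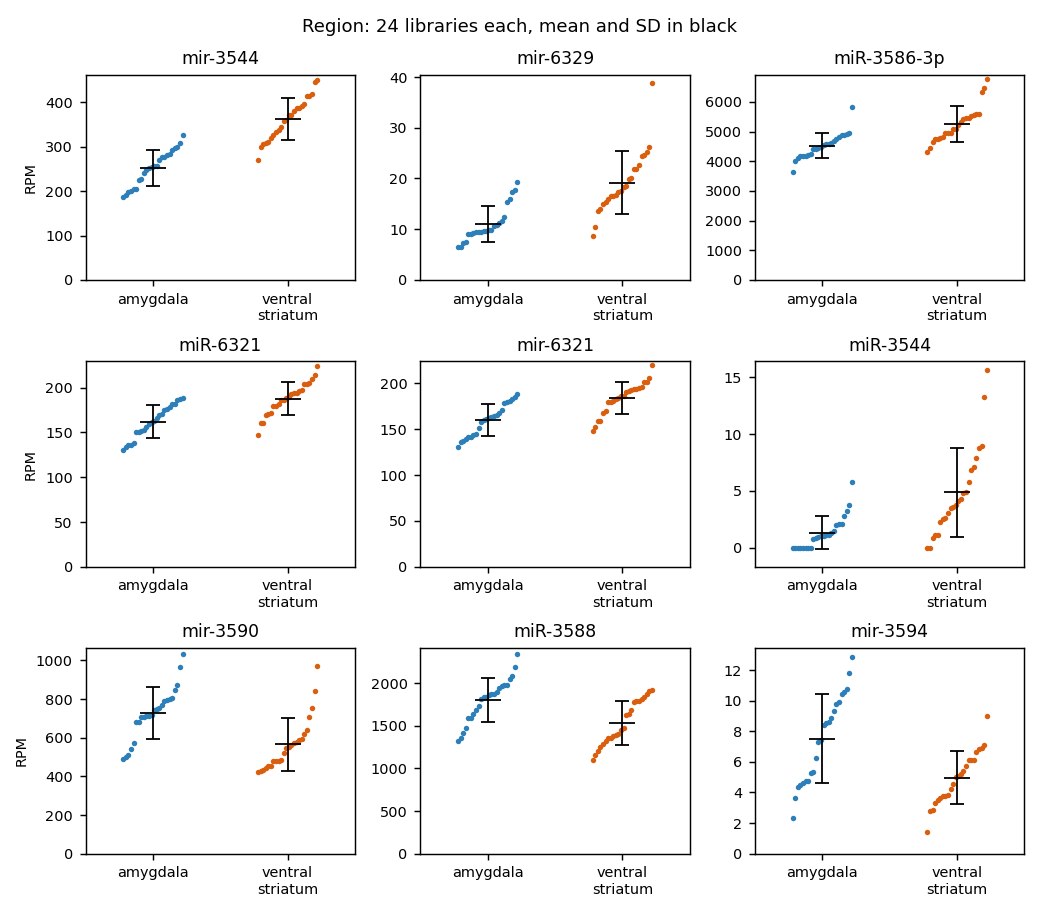
Values (RPM, linear axes) of the 9 members named for region, 1 point per library in rank order, amygdala in blue and ventral striatum in orange, with mean and SD (n = 24 each) in black. The first 6 panels sit higher in ventral striatum and the last 3 higher in amygdala, with overlap in all of them.

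The abundant members otherwise differed little between regions. miR-3543 had a log2 difference of −0.03 (standard error 0.05), miR-3552 of 0.10 (standard error 0.20) and miR-6331 of 0.00 (standard error 0.08). None of these passed the threshold, and neither did miR-3596a (limma adjusted p = 0.167), miR-3557-5p (0.132) or mir-6331 (0.0735).

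The treatment comparisons asked for the effect of ethanol, written N(EvC) in non-enriched and S(EvC) in socially enriched rats. They also asked for the effect of enrichment, written C(SvN) for rats of saline-injected dams, the controls, and E(SvN) for those of ethanol-injected dams. Each set 6 libraries against 6, over both sexes, in amygdala (A) or ventral striatum (V), and comparisons of a region that share a group are not independent. In these 8 comparisons, 0 members and 0.0% of all names had an adjusted p under 0.05 by limma, over 90 members of 910 names in amygdala and 91 of 933 in ventral striatum. At an unadjusted p under 0.05, A N(EvC) had 2 members, 0 higher and 2 lower after ethanol, against 4.51% of all names, 0.879% higher and 3.63% lower. A S(EvC) had 4, 0 higher and 4 lower, against 3.85% of all names, 2.09% higher and 1.76% lower. A C(SvN) had 3, 2 higher and 1 lower with enrichment, against 2.64% of all names, 0.989% higher and 1.65% lower. In A S(EvC) the members made up mir-6319-1, mir-6319-2, miR-6319 and miR-6324, of which the first 3 share a number. A E(SvN) had 2, 1 higher and 1 lower, against 2.64%, 1.54% higher and 1.1% lower. V N(EvC) had 2, both higher after ethanol, against 2.04%, 1.18% higher and 0.857% lower. V S(EvC) had 3, 1 higher and 2 lower, against 2.25%, 0.643% higher and 1.61% lower. In V N(EvC) these were mir-6314 and miR-6314. V C(SvN) had 3, 2 higher and 1 lower, against 3.86%, 1.71% higher and 2.14% lower. V E(SvN) had 3, all higher, against 1.82%, 0.857% higher and 0.965% lower. In V E(SvN) these were miR-6318, mir-6315 and miR-6315, of which the last 2 share a number. So do mir-6319-1 and miR-6319 among those of A C(SvN). Over the members the share was 2.20% to 4.44%. As for region, the members tested included names that never reached 1 read, and their part in these shares was not tested. The members with the smallest p in each comparison follow as values. The exact permutation test on mean RPM (two-sided, over all divisions of the 12 libraries) could not give a p under 0.00216, and its p-values are unadjusted.

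Ethanol in non-enriched rats, amygdala. miR-6329 had 0 RPM in the lowest, 3.83 in the median and 5.03 in the highest ethanol library, and 4.604, 7.03 and 11.4 RPM in control libraries. Ranges overlapped only between 4.604 and 5.03 RPM (log2 difference −1.19, standard error 0.40, limma adjusted p = 0.842). The difference was −0.77 without the ethanol male library of replicate 2, −1.83 with a pseudocount of 0.1 and −0.43 with one of 10. miR-6325 had at least 1 read in 1 of 6 ethanol and 3 of 6 control libraries (exact permutation p = 0.303), with means under 1 read in both groups. In ventral striatum the smallest p-values were those of mir-6314 and miR-6314, from the Fndc7 span. miR-6314 had 1.56, 2.21 and 5.94 RPM after ethanol and 0, 0.950 and 3.35 RPM in controls (exact permutation p = 0.0714, limma adjusted p = 1), and mir-6314 had at least 1 read in 6 of 6 and 4 of 6 libraries (exact permutation p = 0.0714).

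Ethanol in socially enriched rats, amygdala. miR-6319, from the span of the exocyst gene Exoc2, had at least 1 read in 1 of 6 ethanol and in 6 of 6 control libraries. Its values were 0 RPM in 5 ethanol libraries and 1.12 RPM in the other, against 0.857 RPM in the lowest, 2.14 in the median and 3.68 in the highest control library. The mean was 0.167 reads against 1.67 reads, both under the floor, so no fold is given (exact permutation p = 0.00649, limma adjusted p = 0.502). Its precursor mir-6319-1 had 0 reads in all 6 ethanol libraries and at least 1 read in 5 of 6 control libraries (exact permutation p = 0.0152). miR-6324, from the Brwd1 span, had 0 RPM in 5 of 6 ethanol libraries and 2.10 RPM in the other, and 0, 7.95 and 18.4 RPM in control libraries (exact permutation p = 0.0152, limma adjusted p = 0.69).

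In ventral striatum of socially enriched rats, mir-3577 had 0 RPM in the lowest, 2.16 in the median and 4.32 in the highest ethanol library, and 0, 0.317 and 1.44 RPM in control libraries (exact permutation p = 0.0368, limma adjusted p = 1). miR-3583-5p had at least 1 read in 0 of 6 ethanol and 4 of 6 control libraries (exact permutation p = 0.0606). Both were under 3 reads on average in each group.

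Enrichment in control rats. In amygdala the smallest p-values were again those of mir-6319-1 (exact permutation p = 0.0541) and miR-6319 (exact permutation p = 0.162), with at least 1 read in 5 and 6 of 6 enriched libraries and in 1 and 2 of 6 non-enriched ones, the enriched libraries being the controls of the comparison above. In ventral striatum miR-3592, which carries the values of miR-382-3p, had 8.79 RPM in the lowest, 14.001 in the median and 17.9 in the highest enriched library, and 6.10, 8.47 and 11.35 RPM in non-enriched libraries. The log2 difference was 0.63 (standard error 0.18, limma adjusted p = 1). mir-3577 had 0, 0.317 and 1.44 RPM with enrichment and 1.32, 1.82 and 2.99 RPM without it (exact permutation p = 0.00433, limma adjusted p = 1), at 0.667 against 2.5 reads on average.

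Enrichment in ethanol-exposed rats. In amygdala miR-3557-3p, which carries the values of miR-378a-5p, had 1.38 RPM in the lowest, 5.24 in the median and 7.29 in the highest enriched library, and 4.40, 7.47 and 16.3 RPM in non-enriched libraries (log2 difference −0.82, standard error 0.32, limma adjusted p = 1). Without the amygdala libraries with the highest choroid plexus sums the log2 difference was 0.09. The enriched libraries had a mean of 6.11 ± 2.01 RPM of miR-6329 and the non-enriched ones 3.33 ± 1.90 RPM (SD, n = 6 each, exact permutation p = 0.0281), the latter being the ethanol libraries of A N(EvC). In ventral striatum miR-6318 had 2.94, 4.20 and 10.6 RPM with enrichment and 1.13, 3.05 and 3.58 RPM without it (log2 difference 0.80, standard error 0.30, limma adjusted p = 1). mir-6315, within the Vps51 span by its mature name, had 3.38, 7.29 and 11.9 RPM against 0.937, 2.53 and 11.0 RPM (log2 difference 0.97, standard error 0.42, limma adjusted p = 1), with overlap across most of the range.

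**Figure D5:**
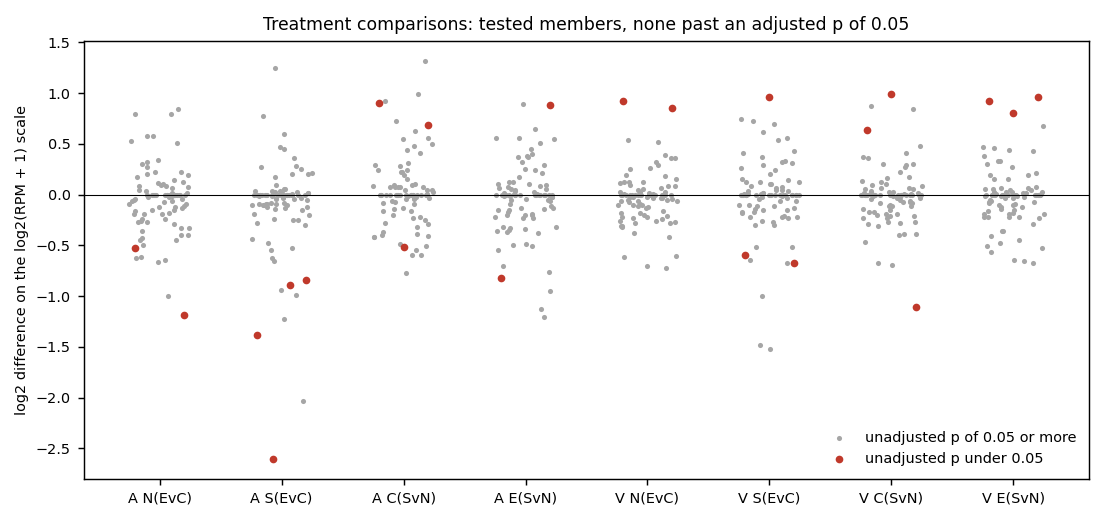
Log2 differences on the log2(RPM + 1) scale of the tested members in the 8 treatment comparisons, 1 point per member, in red where the unadjusted limma p was under 0.05. Most members lie within 0.5 of 0, and the lowest point is miR-6324 in A S(EvC), at −2.60.

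The treatment effects did not pass the adjusted threshold for a difference between amygdala and ventral striatum in any of the 93 members (0 in each of the 4 comparisons). In 8 tests of a difference between the sexes, 1 member was past the adjusted threshold in 1 test, mir-6325 for C(SvN) in ventral striatum, where 0.107% of all names were, and its libraries held at most 3 reads each. For females against males, 0 of 93 members and 0.0% of all names were past the adjusted threshold by limma, and 1 member, lower in females, and 3.93% of all names (1.49% higher in females, 2.44% in males) had an unadjusted p under 0.05. This was mir-3561, with at least 1 read in 1 of 24 female and 7 of 24 male libraries (permutation p = 0.0142). mir-6329 came next, at 13.8 ± 5.66 RPM in females and 16.5 ± 7.04 RPM in males (SD, n = 24 each, permutation p = 0.148).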

How the data were processed

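Small RNA libraries of 48 RNA pools were examined. The authors deposited 1 table with a signal per miRNA name and library, described as RPM. Per their methods, reads were trimmed at a Phred quality of 20, aligned with Bowtie to Rn5 and quantified in Partek Flow against miRBase 21. How reads matching several names were shared out, and whether strand was used, is not given in the sources used here. For equal results within a miRNA family, such as mir-3591 with mir-122, the study proposes a likely reason. Its read counting could not separate the 2 isoforms. That was not tested here. Values include fractions of a read: 88.8% to 95.8% of the low mature and 67.2% to 74.0% of the low precursor values were whole reads within 0.02 reads, so no count model was used.

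Rows sharing a name were summed. Names above 0 in at least 6 of 24 libraries of a region were modelled on the log2(RPM + 1) scale in R 4.3.3 by limma 3.58.1, with moderated variances and a mean-variance trend. The 8 cells of sex and treatment, or 16 cells with region, were the groups, and p-values were adjusted over all names. The fits were tested on simulated data. Permutation tests used scipy 1.17.1, exact for 6 against 6 and with 100000 resamples for 24 against 24. Both regions came from the same rats, and the labels do not say which pools share animals. p-values measure the spread between pools. The members, lists and tests were chosen with earlier results of these data known. Named were each member repeating an older name, the 10 mature and 6 precursor members of highest mean, up to 6 members per direction for region, 2 per other comparison by limma p and members past the threshold. miR-6324 in A S(EvC) and the abundant members given for region were added after their values were seen. Marker lists covered neurons, forebrain, oligodendrocytes, choroid plexus, ciliated cells, blood, liver and muscle. Of the members, 5 mature and 12 precursor names had no sequence in the table and are given by name only. Alternatives were other pseudocounts, filters and scalings, mature and precursor names apart, rows apart, same-valued names once, unlogged values, block fits, the 12 libraries compared, and each library left out.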

Additional observations from a re-analysis of the deposited data

Results flagged for a closer look

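The effect of enrichment in control rats on the precursor mir-6325 in ventral striatum differed between the sexes by a test of that difference, a log2 difference of 2.59 between females and males (standard error 0.48, limma adjusted p = 0.0449). Females had 0 RPM in all 3 non-enriched libraries and 0.819, 1.27 and 1.44 RPM in the enriched ones (1, 2 and 2 reads). Males had 0.910, 1.98 and 2.84 RPM without enrichment (1, 3 and 3 reads) and 0 RPM in all 3 enriched libraries. Each library held at most 3 reads of this name, and this was the only member past the threshold in 12 tests of differences between effects, 8 of them between the sexes (0.107% of all names in this test). Mature miR-6325 gave 2.11 in the same test (limma adjusted p = 1).

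A gap between 1 library and the other 5 stood out in 3 of 26 groups of 6 libraries examined. These were groups of the members named by smallest p, and groups at 0 RPM throughout were not examined. A chance rate for such gaps cannot be given, since 1 library above 0 among 5 at 0 is always marked. In each case the other 5 libraries were at 0 RPM, so the gap took up the whole range (a share of 1.0): miR-6325 in amygdala of ethanol-exposed non-enriched rats (0.880 RPM), miR-6319 in amygdala of ethanol-exposed socially enriched rats (1.12 RPM) and mir-6319-1 in amygdala of control non-enriched rats (1.32 RPM).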

How the results depend on the processing

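The count of members past the adjusted threshold for region was 17, lay between 15 and 21 with each library left out in turn, and was 12 to 17 under the other planned settings except the replicate block, which gave 20. Higher in amygdala were 3 members, 3 to 5 with a library left out (5 without 1 library of amygdala, saline, socially-enriched males, replicate 1). Higher in ventral striatum were 14, 12 to 17 with a library left out, and 8 with median-ratio rescaling. With the 13 amygdala libraries of highest choroid plexus sums left out, chosen after seeing the data, the counts were 9, 0 and 9. The treatment and sex counts of 0 stayed 0 under every planned setting, each library left out included. With the 13 libraries left out, some groups held 1 library, assumed to vary like the others. Members past the threshold in that fit are given by log2 difference only. miR-6324 had −3.64 in A S(EvC) and 1.97 in A C(SvN). mir-3589 had −0.84 in both A N(EvC) and A C(SvN), which share the saline non-enriched group. It had at least 1 read in 3 of the 48 libraries. Of 457 recomputed values of the 18 named treatment and sex results, 2 changed sign: miR-3557-3p in A E(SvN), 0.085 without those libraries, and mir-6329 for sex, 0.040 with the replicate block. The cause was not tested. The log2 differences of low members followed the pseudocount: with 10 in place of 1, mir-6329 and mir-3594 for region had −0.46 and 0.22, miR-3557-3p in A E(SvN) −0.37, miR-3592 in V C(SvN) 0.36, miR-6318 and mir-6315 in V E(SvN) 0.29 and 0.35. Same-numbered libraries had a median correlation of −0.034 in amygdala and 0.010 in ventral striatum over 36 pairs each. The correlations ranged from −0.75 to 0.74 and from −0.64 to 0.53, so the medians do not show whether replicate number paired the libraries. Depth differed by replicate in male amygdala libraries. Those of replicate 2 held 363108 to 544070 mature reads, and those of replicates 1 and 3 at least 795545. The replicate block was not used elsewhere and called 0 treatment results.

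Detection depended on its definition, with medians of 35, 31 and 3 libraries for mature members above 0, with 1 read and above 3 reads, and of 48, 11.5 and 0 for precursor members. Names repeating an older one numbered 6 with equal values, 53 within 1 read in all libraries, since rare names lie within 1 read of any other rare name, 6 where the member averaged at least 3 reads, and 27 with fixed ratios included. Depth limits the rare members: 23 mature and 37 precursor members never exceeded 3 reads.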
